A study of Mus musculus with 2 samples.

Results

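The kinesins are the motor proteins that walk along microtubules, and 39 genes of this superfamily were measured in mouse neural precursor cells that had received either a control retrovirus or an HMGN1 retrovirus. Members were all genes whose symbol in the array annotation follows the Kif or Kifc naming pattern and whose probe sets carry that symbol alone. They made up 39 of 19938 genes and 44 probe sets. By their textbook roles 12 were taken as mitotic, 17 as transport motors, 6 as motors of the cilium and 4 as others. The annotation also holds a probe set shared by Kifc1 and Kifc5b, which is not a member because it names both.

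The precursor cells came from the forebrain of Jcl:ICR mouse embryos at E11.5 and grew with FGF2 and EGF. The control group received the control retrovirus and the other group a retrovirus for HMGN1, a nucleosome-binding chromatin protein. Both were replated 3 days after infection and then spent 1 day without either growth factor. Each group is 1 whole-transcript array of total RNA, so there is no replicate, no test between the groups was possible and every difference describes this pair of RNA samples. The number of embryos, the fraction of cells that carried each virus and the promoter of the HMGN1 virus are not given in the sources used here. Deposited intensities ran from 3.08 to 18892 over both arrays. Hmgn1 itself read 230 on the control array and 348 on the other. Of the markers listed for each cell type, 10 of 10 precursor genes and 11 of 11 neuron genes were detected, as were 4 of 5 for astrocytes, 6 of 6 analysed for the oligodendrocyte lineage, 3 of 5 for fibroblasts and pericytes, 1 of 5 for microglia and 0 of 5 for endothelium. In such bulk RNA, fewer cells of a type and less RNA per cell cannot be told apart.

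A kinesin couples ATP hydrolysis in a conserved motor domain to steps along a microtubule or to the removal of tubulin from its end. Mitotic kinesins build the spindle, move chromosomes and close the division furrow, and their genes are used mainly in dividing cells, among them the precursors of the embryonic forebrain. Transport kinesins carry vesicles, mitochondria and other cargo, and in neurons they supply the axon from the cell body.

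The promoters of the mitotic members share letters that those of the transport members mostly lack. The cell cycle genes homology region, or CHR, is an element through which the DREAM and MuvB complexes are known to hold back mitotic genes outside division, often near a CCAAT box, the site of the factor NF-Y. RefSeq (GRCm38.p6) promoter windows, from 250 bases before to 50 bases after an annotated start, were matched for 31 of the 39 genes. They were searched on both strands for CHR, spelled TTTGAA or TTCGAA, and for CCAAT. A CHR match lay in 9 of 11 mitotic genes (81.8%) and in 1 of 11 transport genes (9.09%), against 19.2% of all 32851 windows and 21.7% of the 27025 genes they belong to. CCAAT lay in 7 of 11 mitotic and 3 of 11 transport genes, against 37.4% of all windows and 41.1% of genes. Both together lay in 6 mitotic genes and 0 transport genes, against 7.52% of windows, and no CHR match overlapped a CCAAT match. The windows differ in base composition, with a median GC content of 59.7% for mitotic and 69.3% for transport windows, and the part of base composition in the motif counts was not tested. A match is a description of the letters, not a binding site.

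The 80 bases before the start are shown for 4 genes, chosen after the matches were seen from those in which no annotated gene of the RefSeq table overlaps the stretch. Kif11 and Kif15, which keep the spindle poles apart, show the CHR at the same distance from the start, Kif4 a CCAAT box at the start itself, and the axonal motor Kif5c neither. Capitals mark CHR or CCAAT letters, here all on the opposite strand. All 4 lie on the plus strand, Kif11 at chr19:37376302-37376381, Kif15 at chr9:122951001-122951080, Kif4 at chrX:100625985-100626064 and Kif5c at chr2:49619206-49619285.
Kif11: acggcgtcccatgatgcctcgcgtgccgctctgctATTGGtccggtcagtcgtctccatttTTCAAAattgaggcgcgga
Kif15: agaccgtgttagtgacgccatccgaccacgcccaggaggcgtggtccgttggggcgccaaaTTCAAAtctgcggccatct
Kif4: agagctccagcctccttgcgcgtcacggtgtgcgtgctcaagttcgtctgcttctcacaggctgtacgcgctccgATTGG
Kif5c: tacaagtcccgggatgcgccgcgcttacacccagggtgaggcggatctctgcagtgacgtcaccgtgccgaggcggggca

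In Kif11 and Kif15 the CHR covers positions -19 to -14, where -1 is the base before the start. The CHR of Kif4 lies after its start, at 20 to 25, outside the stretch shown. In 7 mitotic genes a CHR match fell within 30 bases of the start, and in Kif14 and Kif2c it fell only further upstream. Kif18a, a mitotic gene, had neither motif in its window. The only transport gene with a CHR match was Kif1a, at -44 to -39 in the first of its 2 windows.

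**Figure D1:**
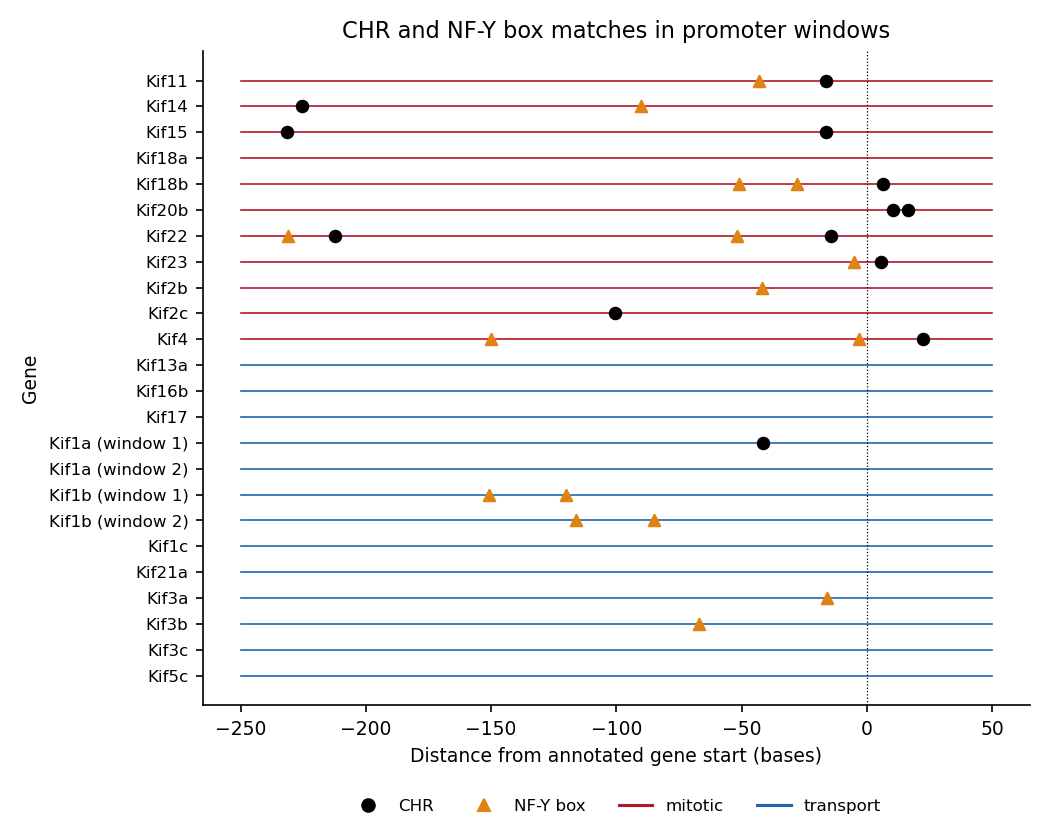
Positions of CHR matches (circles) and CCAAT matches (triangles, the NF-Y box) along the promoter window of each mitotic (red) and transport (blue) kinesin gene, in bases from the annotated start (dotted line). Circles lie on 9 of 11 mitotic genes and 1 of 11 transport genes.

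Of the 39 genes, 31 were detected. A gene counted as detected when the mean of both arrays reached an intensity of 85.9, the level that 95% of 1035 probe sets for olfactory receptors, genes with little use in these cells, did not exceed. The detected kinesins ran from 88.1 to 1415 and the 8 others from 41.0 to 73.3. Just inside the floor were Kifc2 (88.1 and 89.5, control virus first) and Kif24 (104 and 93.0), and just outside were Kif26b (67.4 and 68.6) and Kif6 (61.9 and 73.3). Values under the floor cannot be told from background, and differences there are not interpreted.

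**Figure D2:**
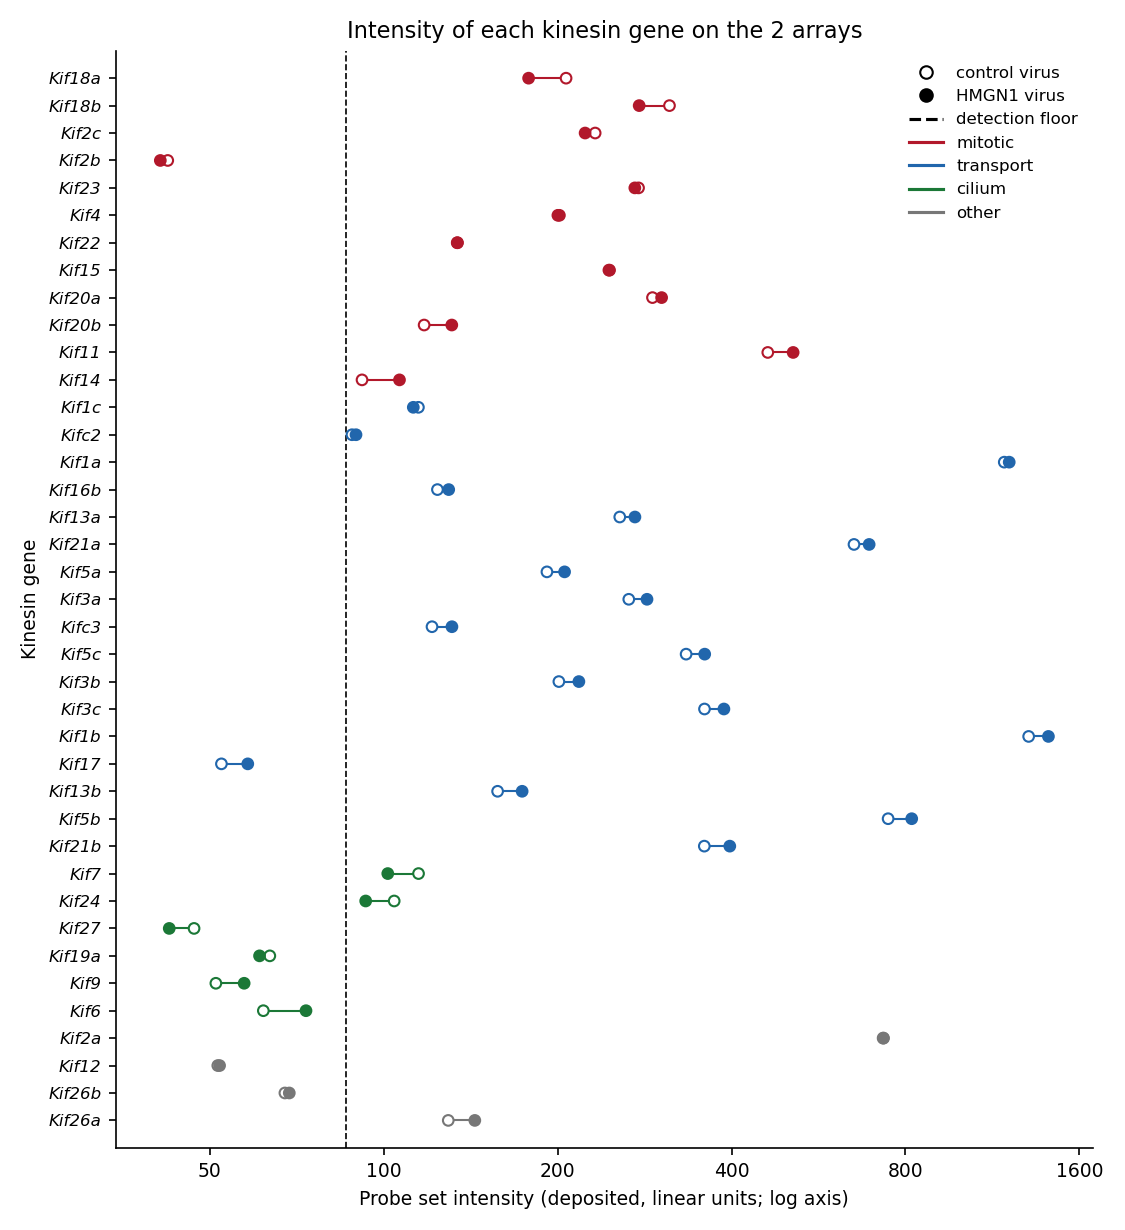
Deposited probe set intensity of each of the 39 kinesin genes (log axis) with the control virus (open) and the HMGN1 virus (filled), coloured by role, with the detection floor of 85.9 dashed. The filled point lies to the right of the open one in 15 of 16 detected transport genes and in 5 of 11 detected mitotic genes, and levels of different probe sets are not comparable.

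Differences are HMGN1 virus minus control virus on the scale log2(intensity + 16), which understates the change of dim genes. They were small throughout the family, from -0.20 (Kif18a) to 0.19 (Kif14). None of the 31 detected kinesins reached a log2 difference of 0.32, a size passed by 0.494% of the 11325 detected genes upward and by 0.521% downward. At the smaller size of 0.202, which 4.22% of detected genes passed upward and 2.71% downward, the kinesins again counted 0 both ways, with Kif18a (-0.199) just short of it. That 0 held for the values as deposited and was lost under 5 other settings of offset or scaling, each with 1 or 2 kinesins past the size, Kif18a always among them. As a scale, the differences of probe sets of 1 gene scattered about their gene's mean with a pooled SD of 0.089, over 683 genes. This SD, called the SD between probe sets of 1 gene, leaves out variation between cultures. Of the 31 detected kinesins 18 lay beyond that SD, where 40.9% of all detected genes did. Kif18a and Kif14 were beyond 2 such SDs (0.18), at the 2.82 and 94.2 percentiles of detected genes. Even the larger size of 0.202 was passed by 4.22% of detected genes upward and 2.71% downward, so these 2 of 31 are not read as a trait of kinesins. The 18 became 11 after centring, where 38.2% of detected genes lay beyond the SD, and 9 with the trend of gene span removed, where 36.5% did.

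Transport kinesins were mostly higher, and mitotic kinesins went both ways. Of the 16 detected transport kinesins 15 were higher with the HMGN1 virus and 1 lower, with a median of 0.10 and a range from -0.026 to 0.14. Of the 11 detected mitotic kinesins 5 were higher and 6 lower, with a median of -0.0013, a mean of 0.0066 and a range from -0.20 to 0.19. Among all detected genes 60.1% were higher and 38.4% lower, with a median of 0.027. The gap between the medians, transport minus mitotic, was 0.10. The SD between probe sets of 1 gene applies to single probe sets and is not a scale for a gap between medians. The transport genes also lay closer together, with an SD over genes of 0.045. It was 0.12 for the mitotic genes, near the 0.11 of all detected genes. Above the transport median lay 3 mitotic genes. That median falls between Kif3a and Kifc3, at the 76.6 and 77.5 percentiles of detected genes. Below the mitotic median, the value of Kif22 at the 38.2 percentile, lay 1 transport gene. Genes of a family are not replicates of a culture, so these counts carry no test.

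**Figure D3:**
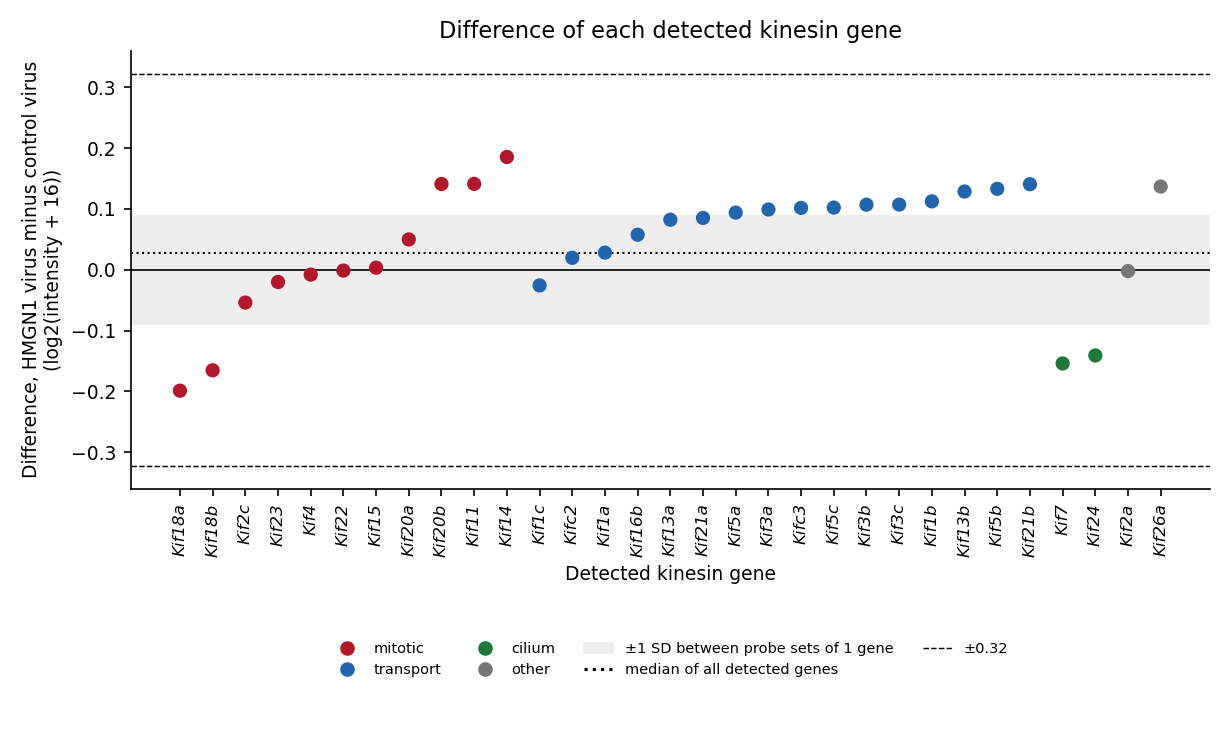
Difference between the arrays, HMGN1 virus minus control virus on the log2(intensity + 16) scale, for the 31 detected kinesin genes, ordered within each role. The grey band is 1 SD between probe sets of 1 gene (0.089), the dotted line the median of all detected genes (0.027) and the dashed lines a log2 difference of 0.32 either way. Transport genes run from -0.026 to 0.14 with a median of 0.10, and mitotic genes from -0.20 to 0.19 with a median of -0.0013.

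Among motors of spindle assembly, Kif11, the tetrameric motor that pushes the poles apart, read 462 with the control virus and 511 after the HMGN1 virus, a difference of 0.14. Kif15, which helps Kif11 keep the spindle bipolar, read 245 and 246 (0.0034). Kif2c, which removes tubulin at kinetochores to correct faulty attachments, read 232 and 223 (-0.054). Kif11 alone of these lay beyond the SD between probe sets (0.089), as did 40.9% of all detected genes.

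The pair that aligns chromosomes and trims spindle microtubules had the lowest values of the family. Kif18a, which dampens chromosome movements at the spindle equator, read 207 and 178, a difference of -0.20 at the 2.82 percentile of detected genes. Kif18b, which limits astral microtubules, read 312 and 277 (-0.17, 4.57 percentile). Each has a single probe set here. The chromokinesins, which bind chromosome arms, hardly differed. Kif4 read 201 and 200 (-0.0080) and Kif22 read 134 on both arrays (-0.0013).

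Motors of cytokinesis were higher in 3 of 4 cases, not far from the 60.1% of all detected genes that were higher. Kif14, a midbody motor that works with citron kinase, read 91.7 and 106, which gave the highest difference of the family (0.19, 94.2 percentile) at an intensity close to the floor. Its second probe set held 13.5 in both columns, so the mean over both was 0.093. Kif20b, needed for abscission and for normal growth of the cortex, read 117 and 131 (0.14). Kif20a, which brings the Aurora B complex to the central spindle, read 292 and 303 (0.050), and Kif23, the motor of the centralspindlin complex, read 276 and 272 (-0.020). So within the mitotic list the alignment motors lay low, the spindle motors Kif2c and Kif15 near 0, and Kif11, Kif14 and Kif20b high. Kif2b, a relative of Kif2c, was under the floor (42.3 and 41.0). The probe set shared by Kifc1, a minus-end motor that focuses spindle poles, and Kifc5b read 189 and 176 (-0.094).

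The conventional kinesins, or kinesin-1 heavy chains, were all higher, where 60.1% of all detected genes were. Kif5b, which is used in most cell types, read 747 and 820, a difference of 0.13. The neuronal forms Kif5a (192 and 206, 0.094) and Kif5c (334 and 359, 0.10) followed closely. All 3 exceeded the SD between probe sets as deposited. Kif5b alone did so after centring (0.11) and with the intensity trend removed (0.095), and 0 of the 3 with the trend of gene span removed. Their SD over the 3 genes was 0.021.

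Kinesin-2 motors carry vesicles and the trains that build cilia. Kif3a and Kif3b, which join with Kifap3 into the heterotrimeric motor, read 266 and 286 (0.099) and 201 and 218 (0.11). Kif3c, an alternative partner of Kif3a, read 359 and 388 (0.11). As deposited these 3 differences were nearly equal, with an SD of 0.0046. With quantile normalization they were further apart, at 0.072 (Kif3a), 0.094 (Kif3b) and 0.088 (Kif3c). Kifap3, whose value had been seen before it was named, read 396 and 418 (0.073). Kif17, a motor of dendrites and cilia, was under the floor (52.3 and 58.1).

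Kinesin-3 motors were more uneven. Kif1b, a carrier of mitochondria and synaptic vesicle precursors, read 1308 and 1415 (0.11), whereas Kif1a, the main carrier of synaptic vesicle precursors, read 1186 and 1210 (0.028). Kif13b, which moves phosphoinositide-bearing vesicles, read 157 and 174 (0.13), and Kif13a, an endosome motor, 256 and 272 (0.082). Kif16b, which moves early endosomes, read 124 and 130 (0.058). Kif1c, a motor of Golgi-derived and dense core vesicles, read 115 and 112 (-0.026) and was the only detected transport kinesin with a lower value. Its second probe set was under the floor.

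The remaining transport motors were higher too. Kif21b, a neuronal kinesin-4 that also restrains microtubule growth, had the highest transport value, at 359 and 397 (0.14). Kif21a, its close relative, read 652 and 692 (0.085). The minus-end motors Kifc3 and Kifc2 read 121 and 131 (0.10) and 88.1 and 89.5 (0.020).

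Both detected kinesins of the cilium were lower, where 38.4% of all detected genes were. Kif7, which organises the ciliary tip and tunes Hedgehog signalling, read 115 and 102 (-0.15, 5.42 percentile), and its second probe set read 106 and 98.0 (-0.10). Kif24, which holds back cilium assembly at the centriole, read 104 and 93.0 (-0.14, 6.82 percentile). Both genes lie near the floor, and the scatter of detected genes under an intensity of 200 was 0.12 (SD over 4671 genes). Kif6, Kif9, Kif19a and Kif27 were under it. Kif2a, which shortens microtubules in axon branches and at spindle poles, read 733 and 732 (-0.0023). Kif26a, an atypical member without ATPase activity, read 129 and 144 (0.14), and Kif12 and Kif26b were under the floor.

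The genes that work with each class of motor were set beside them. Among all detected genes 60.1% were higher and 38.4% lower. Among 27 detected spindle and cytokinesis partners 13 were higher, 13 lower and 1 had the same value on both arrays, with a median of 0. That median is the value of Prc1, which read 180 on both arrays, and 749 probe sets of the deposited table hold the same value in both columns. The partners ran from the mitotic kinase Plk1 (-0.17) and Ect2, the exchange factor of the furrow (-0.15), to Cdc20 (0.097) and the pole protein Numa1 (0.12). None of them reached a log2 difference of 0.32, a size that only 0.494% of all detected genes passed upward and 0.521% downward.

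Light chains and cargo adaptors of the transport kinesins had 16 higher and 3 lower genes among 19 detected, with a median of 0.074. For this and the next lists, 60.1% of all detected genes were higher, with a median of 0.027. The highest were the mitochondrial adaptor Trak2 (323 and 373, 0.20) and the liprin Ppfia1 (248 and 282, 0.18), and the lowest Ppfia3 (-0.079) and Hap1, a huntingtin-associated adaptor (212 and 184, -0.19). Dynein and dynactin, the motor that runs the other way, had 14 higher and 4 lower genes among 18 detected, with a median of 0.071. Ndel1, a dynein regulator (198 and 235, 0.23), and Dync1li2 (0.19) were highest, Dynll1 (-0.13) and Bicd2 (-0.032) lowest. Neuron markers spread more widely, with a median of 0.074 and a range from -0.17 to 0.27. Of them 7 of 11 were higher, near the share of all detected genes. The summed intensity of these 11 markers, carried by the brightest of them, was 9610 and 9959. Precursor markers had 4 of 10 higher, a median of -0.022 and sums of 25537 and 25419. The lowest of them were Sox1 (-0.35) and Prom1 (-0.24), the highest Slc1a3 (0.15) and Pax6 (0.11). Astrocyte markers had 3 of 4 detected genes higher and a median of 0.18 over the detected genes. Their sums, which include S100b under the floor, were 2530 and 2722. Gfap stood at 0.58, Aqp4 at 0.32, Aldh1l1 at 0.044 and Aldoc at -0.072. Oligodendrocyte lineage markers had 3 of 6 higher, a median of 0.020 and sums of 5232 and 5168. Mbp (107 and 134, 0.28), not far above the floor, and Pdgfra (0.094) were highest, Olig2 (-0.16) and Cspg4 (-0.059) lowest. The part of cell composition in the kinesin differences was not tested.

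**Figure D4:**
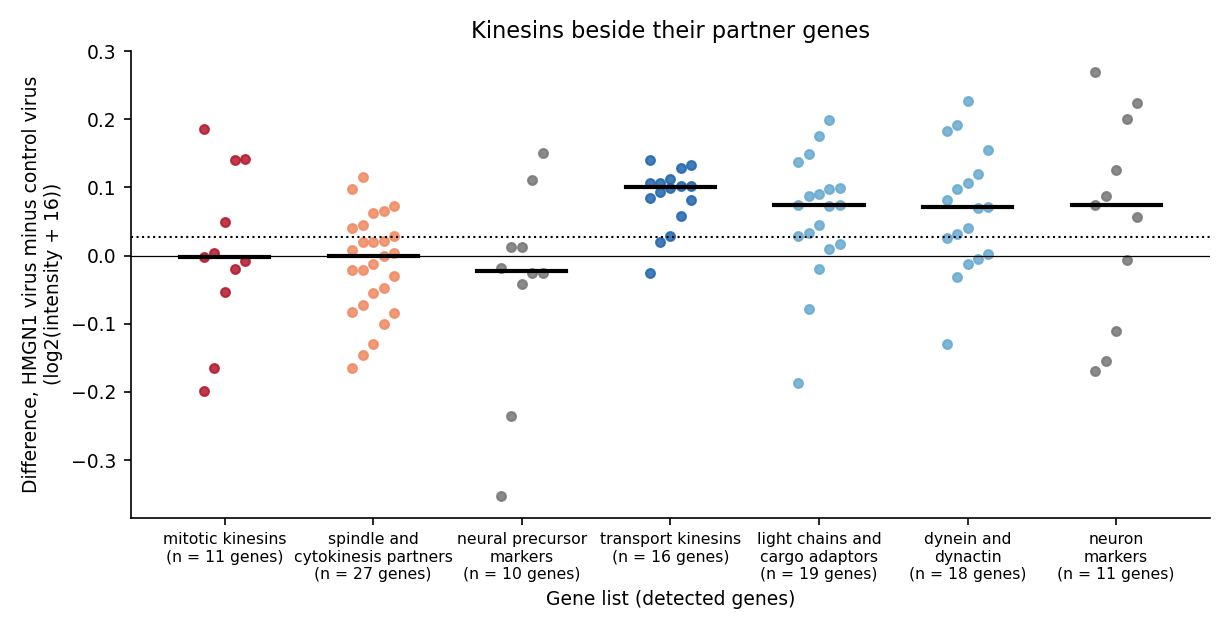
Differences (log2(intensity + 16), HMGN1 virus minus control virus) of detected genes in the mitotic and transport kinesin lists, their partner lists, and the precursor and neuron marker lists, 1 point per gene and a bar at each median. The dotted line is the median of all detected genes, 0.027. Medians were -0.0013 and 0 for mitotic kinesins and their partners, and 0.10, 0.074 and 0.071 for transport kinesins, their adaptors and dynein.

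Gene span, the distance from annotated start to end with introns, moved with the difference over the whole array. Detected protein-coding genes were divided into 10 bins of span. In the shortest bin, up to 4.29 kb, the median difference was -0.026 and 39.2% of genes were higher. In the bin from 34.4 to 49.6 kb the median was 0.049 and 69.4% were higher. Detected transport kinesins had a median span of 66.6 kb (8.41 to 283 kb) and detected mitotic kinesins one of 45.5 kb (8.65 to 101 kb). With the span trend removed by loess, 14 of 16 transport kinesins were higher, with a median of 0.049, and 4 of 11 mitotic kinesins were higher, with a median of -0.045, where 50.1% of detected protein-coding genes were higher. Both medians moved down together, and the gap between them was 0.095. Kif1a (-0.024) joined Kif1c (-0.067) below 0 among the transport genes.

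**Figure D5:**
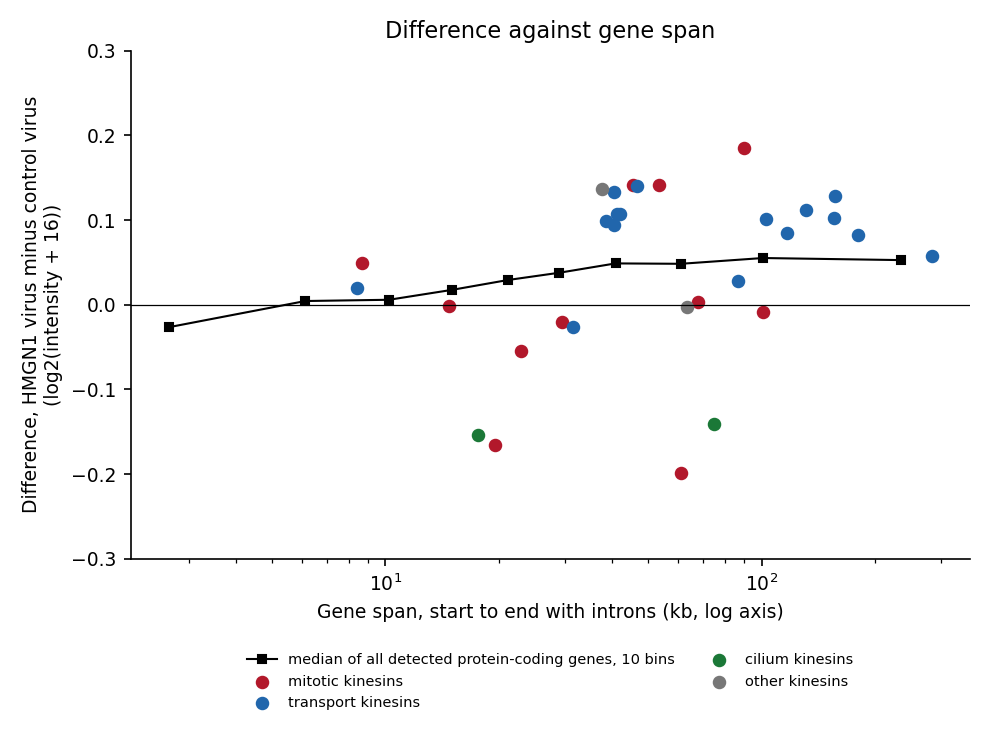
Difference (log2(intensity + 16), HMGN1 virus minus control virus) against gene span in kb (log axis) for the 31 detected kinesins, coloured by role. Black squares are medians of all detected protein-coding genes in 10 bins of span. The squares run from -0.026 in the shortest bin to 0.053 in the longest, and 14 of 16 transport kinesins had a positive difference once this trend was removed.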

How the data were processed

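For each of the 2 arrays the deposited file gives the intensity of 28944 probe sets, linear in scale. The sources used here do not give the correction, normalization or summary behind these deposited intensities, which were used unaltered. Gene symbols came from GEO's platform annotation. Each gene took the probe set that was brightest by the mean of both arrays, and 16 was added before log2. Span and promoter sequence came from RefSeq GRCm38.p6 by gene number. The deposited table names no genome build. Role lists, partner lists, the size limit of 0.32 and the members were chosen with earlier results of these data known. All detected kinesins were named, as were Hmgn1 and the 2 highest and 2 lowest detected genes of each partner list. Marker lists were planned by count and median only, and single markers were named after their values were seen. With 1 array per group no test was run, and the number of arrays limits the precision. Trends were fitted by loess over a span of 0.3 (statsmodels 0.14.6, Python 3.11.15). The code was tested on simulated data. Alternatives were offsets of 1 and 64, quantile normalization, centring, removal of the intensity or span trend, other floors, averaged probe sets, other role lists, means, and sizes of 0.202 (log2) and 1.5-fold.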

Additional observations from a re-analysis of the deposited data

How the results depend on the processing

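No paired analysis was possible because there is a single array for either virus, which also means that no replicate could be left out. The gap between transport and mitotic medians kept its sign under each alternative run, from 0.083 to 0.11, and the gap between means was 0.079. As for size, 0 kinesins passed a log2 difference of 0.32 under any setting run, or 1.5-fold with the values as deposited. The separate medians depended on the scaling. Centring on all detected genes gave -0.029 for mitotic kinesins, 0.073 for transport kinesins, -0.027 for spindle partners, 0.046 for cargo adaptors and 0.044 for dynein. Removal of the intensity trend gave -0.033, 0.063, -0.030, 0.038 and 0.036 in the same order, and removal of the gene span trend -0.045, 0.049, -0.037, 0.020 and 0.035. These shifts follow from the construction of the alternatives. Lower transport kinesins numbered 2 under each of these 3 settings and 0 with the floor at the 99th percentile. At the smaller size of 0.202, counted after seeing the data, 0 kinesins as deposited became 1 higher (Kif14) and 1 lower (Kif18a) with an offset of 1 or quantile normalization, 1 lower (Kif18a) after centring or removal of the span trend, and 2 lower (Kif18a and Kif18b) with the intensity trend removed. In the narrower list of axonal heavy chains 8 were higher and 0 lower. Of 217 single-gene values 8 changed sign, in 4 genes (Kif15, Kif22, Kif1a and Kifc2), all within the SD between probe sets. Low signal limits Kif14, Kif7, Kif24, Kifc2 and Kif1c most. With the floor at the 99th percentile 26 kinesins remained, without these genes and so without either detected kinesin of the cilium.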
